A study of Rattus norvegicus with 25 samples.

Results

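The miR-10, miR-99 and miR-100 miRNAs were followed through small RNA libraries of mitochondria from rat muscle. They were taken by name as 6 of the 764 mature miRNA rows of the count table: the guide strands rno-miR-10a-5p, rno-miR-10b-5p, rno-miR-99a-5p, rno-miR-99b-5p and rno-miR-100-5p, and rno-miR-10a-3p, the other arm of the miR-10a hairpin (rno, the prefix for rat, is left out below). All 6 had a count in at least 1 library, and 5 had enough counts to enter the test across miRNAs. Trained rats (n = 13) were male Wistar-Kyoto animals that were run on a treadmill for 4 weeks, 5 days in each, starting at an age of 5 weeks. Sedentary rats (n = 12) were of the same sex, strain and age, and were put on a treadmill that did not move for equally long. Every library came from mitochondria that had been isolated from the red, oxidative part of the gastrocnemius and treated with RNase A, and no library of whole muscle was analysed here. Libraries are named by group and title number.

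miRNAs guide Argonaute proteins to messenger RNAs, mainly by pairing through the seed, bases 2 to 8 of the mature strand. The miR-10 genes lie in Hox clusters, miR-10a in Hox B and miR-10b in Hox D, and are known for acting on Hox genes and for marking position along the body axis. miR-99a, miR-99b and miR-100 lie in clusters with let-7 and miR-125 genes and are known for repressing the kinase mTOR and, in some cells, the insulin-like growth factor 1 receptor. All 5 are related in sequence and are usually treated as 1 family.

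Of the 6 members, 5 matched a mature sequence in the RefSeq table (rat build GRCr8), and miR-99a-5p had no entry. The sequences are shown because the members differ by few bases and by where they start. They are written 5′ to 3′ with the seed in capitals.
miR-10a-5p: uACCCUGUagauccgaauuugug
miR-10b-5p: cCCUGUAGaaccgaauuugugu
miR-99b-5p: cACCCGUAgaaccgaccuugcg
miR-100-5p: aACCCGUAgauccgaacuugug
miR-10a-3p: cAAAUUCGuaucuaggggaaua

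The guide strands as annotated in RefSeq do not share 1 seed. miR-99b-5p and miR-100-5p both carry ACCCGUA, which no other mature rat miRNA with an entry in the table carries. The seed of miR-99a-5p could not be read, since it had no entry. miR-10a-5p carries ACCCUGU. The annotated miR-10b-5p starts 2 bases later than miR-10a-5p in the same register and therefore has CCUGUAG at bases 2 to 8. Over their 21 overlapping bases, miR-10a-5p and miR-10b-5p differ at 1 position, U12A, counted from the 5′ end of miR-10a-5p. The longest stretch shared by miR-10a-5p and miR-100-5p is GUAGAUCCGAA, 11 bases long, and it lies outside the seed except for its first bases. A count table holds no read ends, so which 5′ end the counted miR-10b reads had was not measured. The handling of reads that match several of these miRNAs remains not given in the sources used here, and the split of counts between miR-10a-5p and miR-10b-5p, or between miR-99a-5p and miR-100-5p, is uncertain to that extent. No member was among the 17 pairs of rows with nearly identical counts.

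In GRCr8 the mature miR-10a-5p lies on the plus strand at chr10:81779730-81779752, with its precursor between Hoxb5 and Hoxb4. miR-10b-5p lies at chr3:80035886-80035907 (plus strand), inside the extent of Hoxd4. miR-99b-5p lies at chr1:67350070-67350091 (plus strand), inside Spaca6 and ahead of the let-7e and miR-125a precursors. miR-100-5p lies at chr8:50798307-50798328 (plus strand), inside the host gene Mir100hgl and ahead of let-7a-2 and miR-125b-1. The miR-99a precursor lies inside a long non-coding RNA gene, ahead of let-7c-1 and miR-125b-2. The gene table gives gene extents and not exons. The build behind the counts was also not given in the sources used here, and these positions are those of the reference sequences alone.

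Libraries held 26793 to 202388 counts in trained rats and 12181 to 186006 counts in sedentary rats. The muscle miRNA miR-1-3p was the check of the tissue, and it had 70022 to 186928 CPM (counts per 1000000 counts of the library) in trained and 51317 to 168012 CPM in sedentary libraries. Of the other listed muscle rows, miR-206-3p and miR-486 had a count in every library. miR-133a-3p had a count in 12 of 13 trained and 10 of 12 sedentary libraries. Sedentary libraries 30 and 32 stood apart in the levels of miR-10a-5p and miR-10b-5p and in the summed share. The comparisons of levels, of the summed share and of the ratio below are also given without them. Depth was unevenly spread over title numbers. At numbers 1 to 13, trained libraries had 26793 to 43510 counts and sedentary libraries 30527 to 186006. From number 14 on, totals reached 72553 to 202388 in trained and 12181 to 106661 in sedentary libraries.

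miR-99a-5p was the most abundant member. It had 4600 CPM at the lowest, 13115 at the median and 36163 at the highest in trained libraries, against 5008, 13319 and 34672 CPM in sedentary libraries. Both ranges were nearly the same, and the row ranked 17th at the median of all 25 libraries, between place 7 and place 31. miR-10b-5p, the Hox D member, had 689, 6084 and 13863 CPM in trained libraries, against 644, 10143 and 41196 CPM in sedentary libraries. The trained libraries lay within the sedentary range, and the highest sedentary values were 41196 CPM in library 30 and 35295 CPM in library 32. The lowest trained value, in library 13, rested on 30 counts, with a 95% Wilson interval of 483 to 984 CPM. Intervals of this kind cover counting error only.

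miR-10a-5p, the Hox B member, had 1372, 5351 and 10256 CPM (lowest, median and highest) in trained libraries, against 1341, 5291 and 28126 CPM in sedentary libraries. The medians were close, and the groups differed mainly at the top, where sedentary libraries 32 and 30 had 28126 and 25886 CPM. miR-99b-5p had 912, 4929 and 12498 CPM in trained libraries, against 1105, 8150 and 12254 CPM in sedentary libraries. Its groups overlapped over nearly their whole range, and its highest value was in trained library 2. miR-100-5p was the least abundant guide strand, with 761, 1971 and 5160 CPM in trained libraries, against 0, 1420 and 6989 CPM in sedentary libraries. It had both the highest and the lowest values in sedentary libraries. miR-10a-3p had 0 counts in 13 of 13 trained libraries and 47 counts in 1 of 12 sedentary libraries, number 4, where it was at 1540 CPM (95% Wilson interval 1158 to 2047).

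**Figure D1:**
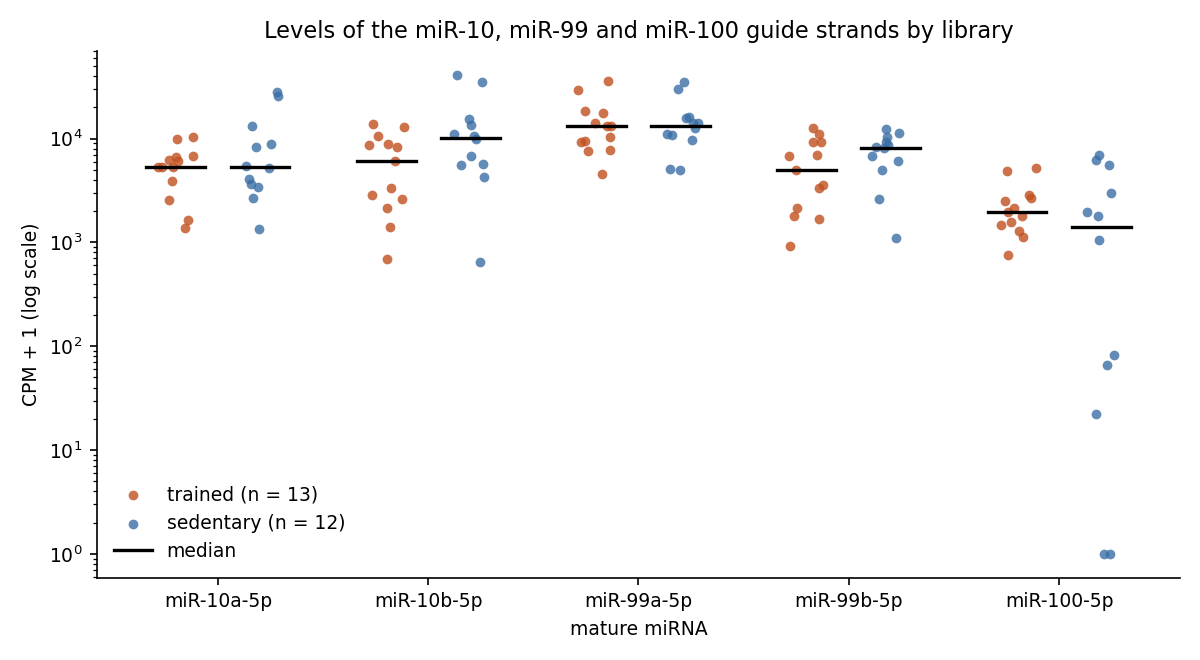
CPM + 1 on a log scale for the 5 guide strands, with 1 point per library, trained (n = 13) left of sedentary (n = 12) and the median as a bar. The groups overlap for every strand, and miR-100-5p at or below 82.1 CPM is seen in 5 sedentary libraries and in no trained one.

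The other arms of these hairpins were empty in most libraries. The libraries together held 2094773 counts, of which 0 fell on miR-10b-3p, miR-99a-3p or miR-100-3p. Over the pooled counts each may have been at up to 1.43 CPM. In a single library 0 counts allow more, from 14.8 CPM in trained library 27 to 246 CPM in sedentary library 19. miR-99b-3p had 835 counts in all, 783 in 3 trained libraries and 52 in 4 sedentary ones, with 522 of them in trained library 25, where miR-99b-5p had 143 counts. In sedentary library 4 the 47 counts of miR-10a-3p stood beside 81 counts of miR-10a-5p, the lowest miR-10a-5p count of all 25 libraries.

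Of the 10 pairs of guide strands, 1 kept its order in every library: miR-99a-5p exceeded miR-100-5p in 13 of 13 trained and 12 of 12 sedentary libraries. miR-100-5p was below miR-10a-5p in 12 of 13 trained and 11 of 12 sedentary libraries, below miR-10b-5p in 11 of 13 and 12 of 12, and below miR-99b-5p in 10 of 13 and 12 of 12. miR-99a-5p exceeded miR-99b-5p in 13 of 13 trained and 11 of 12 sedentary libraries, and miR-10a-5p in 13 and 10 of them. miR-10b-5p was the strand that most often exceeded miR-99a-5p, in 1 trained and 4 sedentary libraries. Between miR-10a-5p and miR-99b-5p no order was seen, since miR-10a-5p was higher in 6 of 13 trained and 5 of 12 sedentary libraries. These comparisons are of counts per row in the same library. The guide strands with an entry are 22 or 23 bases long, and the length of miR-99a-5p was not read. How evenly the libraries captured different sequences was not measured.

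Together the 5 guide strands took 3.46% ± 1.65 of counts in trained libraries (SD, n = 13) and 4.71% ± 3.39 in sedentary libraries (SD, n = 12). In trained libraries the share ran from 1.19% (95% Wilson interval 1.14 to 1.23) over a median of 3.78% to 6.97% (6.67 to 7.28). In sedentary libraries it ran from 1.57% (1.49 to 1.66) over a median of 3.60% to 11.6% (11.4 to 11.9). Sedentary libraries 30 and 32, at 11.5% and 11.6%, were the only 2 of the 25 above 6.97%. The difference of the means was -1.26 percentage points and missed the threshold of 0.05 (permutation test, two-sided, 100000 resamples, p = 0.263, adjusted p = 0.351 over 4 tests of single values). Without sedentary libraries 30 and 32 the sedentary mean was 3.34% ± 1.19 (SD, n = 10) and the difference was 0.117 percentage points (permutation test, p = 0.854). Within title numbers 1 to 13 the share was 4.37% ± 1.45 in trained and 3.62% ± 1.32 in sedentary libraries (SD, n = 6 each, exact permutation test, p = 0.379). Within title numbers 14 to 32 trained libraries had 2.67% ± 1.47 (SD, n = 7) and sedentary libraries 5.81% ± 4.54 (SD, n = 6, exact permutation test, p = 0.121).

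**Figure D2:**
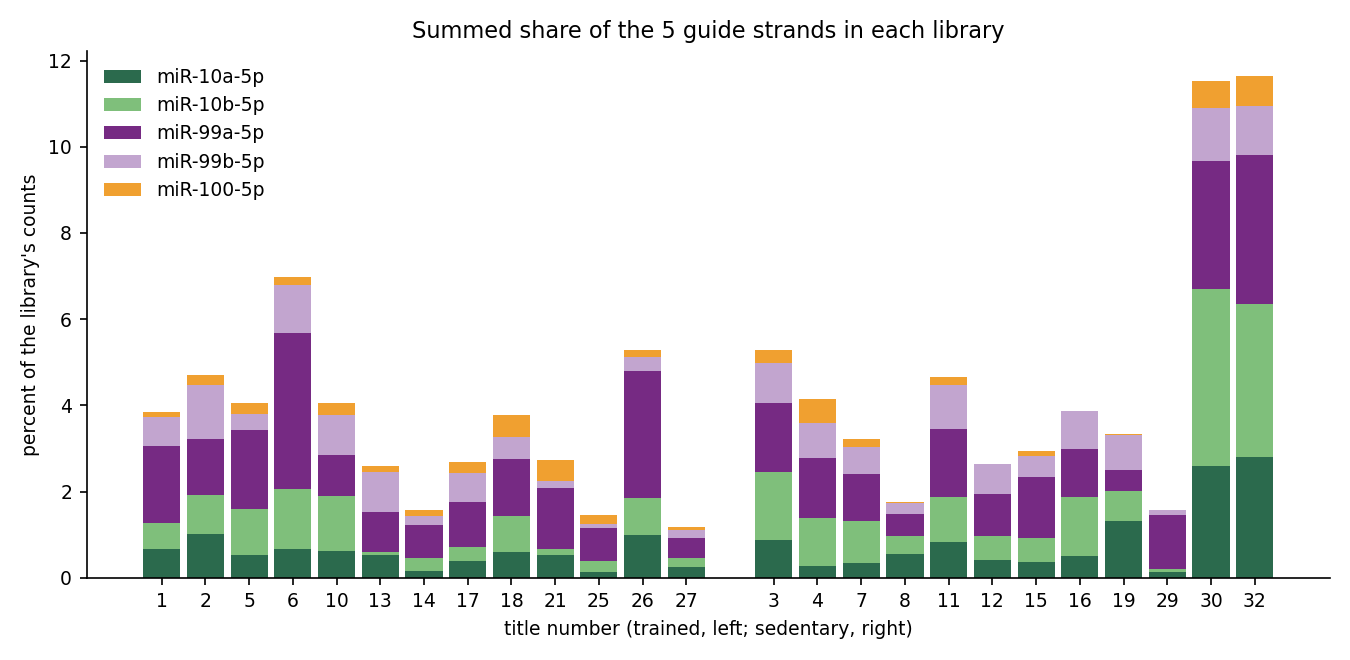
Percent of each library's counts in the 5 guide strands, stacked by strand, with trained libraries on the left and sedentary libraries on the right, in order of title number. Sedentary libraries 30 and 32 reach 11.5% and 11.6%, and no other bar is above 6.97%.

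Markers of other cells were read in the same libraries, and libraries 30 and 32 stood high in some lists and not in others. The endothelial list, of which 3 of 4 rows in the table had a count, summed to 1611 to 11097 CPM in trained and 2555 to 19248 CPM in sedentary libraries. Libraries 30 and 32 held places 1 and 3 of 25, with 19248 and 13683 CPM. The smooth muscle list, with counts in 3 of 3 rows and nearly all of them from miR-143-3p, summed to 8054 to 34140 CPM in trained and 8284 to 54853 CPM in sedentary libraries, and libraries 30 and 32 held places 2 and 3 with 53450 and 52541 CPM. The fibroblast and connective tissue list, with counts in 4 of 4 rows, ran from 531 to 8701 CPM in trained and from 161 to 16150 CPM in sedentary libraries, and libraries 30 and 32 held places 2 and 10 with 9291 and 5128 CPM. The skeletal muscle list, with counts in 4 of 4 rows, took 12.5% to 29.3% of counts in trained and 11.3% to 33.4% in sedentary libraries, and libraries 30 and 32 were at places 20 and 21 of 25 with 15.3% and 13.7%. The erythrocyte markers miR-451-5p, miR-144-3p and miR-144-5p and the leukocyte markers miR-155-5p, miR-223-3p and miR-142-3p had 0 counts in all 25 libraries, while 2 of 5 leukocyte rows had a count and put libraries 30 and 32 at places 5 and 9. The liver marker miR-122-5p ran from 0 to 5598 CPM in trained and from 0 to 4291 CPM in sedentary libraries, with libraries 30 and 32 at places 13 and 11. The part of other cells in the levels of the miR-10, miR-99 and miR-100 strands was not tested. The libraries were made from mitochondria treated with RNase A, so these lists do not measure the cell composition of the muscle. Fewer cells of a type and less RNA per cell cannot be told apart in them.

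The ratio of miR-10a-5p to miR-10b-5p compares the Hox B with the Hox D member within a library, free of its depth. In trained libraries it was 0.48 at the lowest (library 10), 1.10 at the median and 7.62 at the highest (library 13), with 0.5 added to each count. In sedentary libraries it was 0.24 (library 4), 0.69 and 2.07 (library 29). miR-10a-5p was the higher of both in 7 of 13 trained and 3 of 12 sedentary libraries. As a share of both, miR-10a-5p made up 88.5% (95% Wilson interval 84.1 to 91.9) in trained library 13 and 79.1% (76.6 to 81.3) in trained library 21, and the other 11 trained libraries lay between 32.4% and 54.5%. In sedentary libraries the share ran from 19.2% (15.8 to 23.3) to 67.5% (59.7 to 74.5). miR-10a-5p was thus the larger part in 10 of the 25 libraries, and the groups overlapped.

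**Figure D3:**
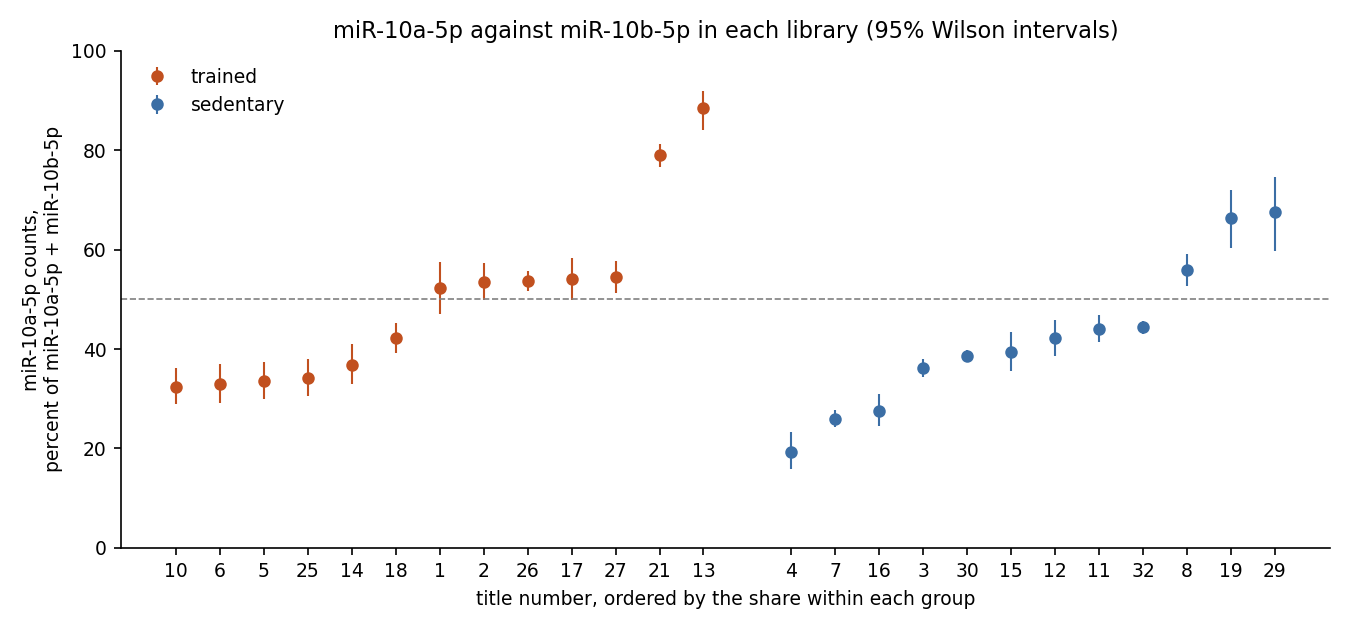
miR-10a-5p as a percent of the counts of miR-10a-5p and miR-10b-5p together in each library, with 95% Wilson intervals, trained left of sedentary and sorted within each group. The dashed line marks equal counts. Trained libraries 13 and 21 lie at 88.5% and 79.1%, above every sedentary library.

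On the log2 scale the ratio averaged 0.050 ± 1.20 in trained libraries (SD, n = 13) and -0.48 ± 0.94 in sedentary libraries (SD, n = 12). The difference of 0.54 was smaller than the spread within either group and missed the threshold (permutation test, two-sided, p = 0.237, adjusted p = 0.351). Without trained library 13 it was 0.30, and without sedentary libraries 30 and 32 it was 0.53 (permutation test, p = 0.278). Within title numbers 1 to 13 the means were 0.034 ± 1.53 in trained and -0.81 ± 0.86 in sedentary libraries (SD, n = 6 each, exact permutation test, p = 0.292). Within title numbers 14 to 32 they were 0.065 ± 0.96 in trained (SD, n = 7) and -0.16 ± 0.98 in sedentary libraries (SD, n = 6, exact permutation test, p = 0.684). A quasi-binomial model, weighted by the counts of both miRNAs, had a difference of 0.66 (SE 0.28, p = 0.0274, adjusted p = 0.110). Sedentary libraries 30 and 32 had the most such counts, 7155 and 5998, and this model was not run without them.

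The levels of both miR-10 members went together across libraries. Over 25 libraries, log2(CPM + 1) of miR-10a-5p and miR-10b-5p had Pearson's r = 0.68 (permutation p = 9.00e-05) and Spearman's rho = 0.61 (permutation p = 0.00138), the only relation tested in this way. Without trained library 13 and sedentary library 29, the farthest from the median of miR-10b-5p, r was 0.71 (permutation p = 0.000110). Without sedentary libraries 30 and 32 it was 0.53 (permutation p = 0.00927). It did not hold in both ranges of title numbers. At numbers 14 to 32 r was 0.84 (n = 13, permutation p = 0.000400), and at numbers 1 to 13 it was 0.13 (n = 12, permutation p = 0.667). In trained libraries alone r was 0.48 (n = 13, permutation p = 0.0942) and rho 0.65 (permutation p = 0.0188), and in sedentary libraries alone r was 0.80 (n = 12, permutation p = 0.00149). Both levels share the library and its total, and with the total taken without both miRNAs r was 0.69. Each member had a higher rho with miR-99b-5p, 0.68 for miR-10a-5p and 0.72 for miR-10b-5p, as a description without a test.

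**Figure D4:**
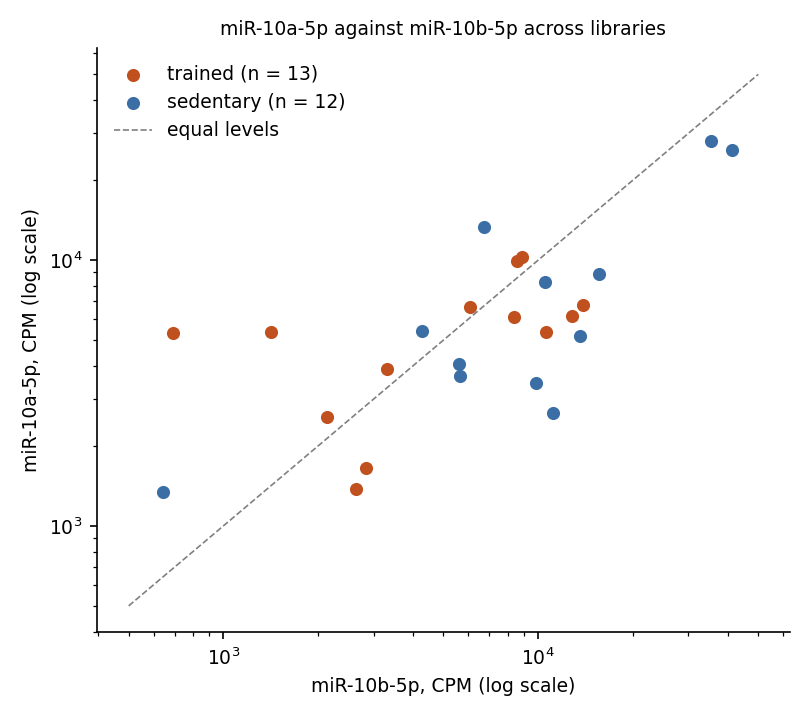
miR-10a-5p against miR-10b-5p in CPM on log axes, with 1 point per library, trained (n = 13) and sedentary (n = 12), and a dashed line at equal levels. The pair of points at the upper right are sedentary libraries 32 and 30, and the trained points farthest above the line are libraries 13 and 21.

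Trained and sedentary rats were compared for every miRNA with enough counts, in 1 fit of 76 rows (the quasi-likelihood test of edgeR, with p-values adjusted by Benjamini-Hochberg over all rows and called under 0.05). Of the 5 tested members 0 passed, and of all 76 rows 0 passed (0%). At an unadjusted p under 0.05 there were 0 of 5 members, against 1.32% of all rows tested. Among the members 2 had positive and 3 negative log2 fold changes, with a median of -0.19, beside -0.0081 over all tested rows.

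miR-10b-5p averaged 6323 ± 4483 CPM in trained (SD, n = 13) and 13329 ± 12413 CPM in sedentary libraries (SD, n = 12). The log2 fold change of trained over sedentary was -0.78 (95% interval -1.57 to 0.014, SE 0.39, edgeR p = 0.0541, adjusted p = 0.916). It was -0.16 (SE 0.45) at title numbers 1 to 13 and -1.33 (SE 0.57, edgeR p = 0.0189, adjusted p = 0.518) at numbers 14 to 32, where sedentary libraries 30 and 32 lie. Without these 2 libraries the sedentary mean was 8345 ± 4562 CPM (SD, n = 10) and the log2 fold change -0.41 (SE 0.41, edgeR p = 0.326). Unadjusted p was under 0.05 with DESeq2 (0.0431) and limma-voom (0.0292), and the adjusted values were 0.989 and 0.185. Over all rows, 8 of 260 in DESeq2 and 14 of 76 in limma-voom had an unadjusted p under 0.05.

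miR-10a-5p averaged 5496 ± 2729 CPM in trained (SD, n = 13) and 9184 ± 8941 CPM in sedentary libraries (SD, n = 12). The log2 fold change came to -0.38 (SE 0.39, 95% interval -1.16 to 0.40, edgeR adjusted p = 0.953), and -0.054 (SE 0.41) without sedentary libraries 30 and 32, when the sedentary mean was 5620 ± 3569 CPM (SD, n = 10). Within title numbers 1 to 13 it was 0.26 (SE 0.40) and within 14 to 32 it was -0.86 (SE 0.60), so its sign rested on the second range. The interval over all libraries includes lower and higher levels in trained rats.

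miR-99a-5p averaged 14721 ± 9054 CPM over 13 trained and 14921 ± 8885 CPM over 12 sedentary libraries (SD), and its log2 fold change was 0.19 (SE 0.30, edgeR adjusted p = 0.971, 95% interval -0.41 to 0.80). Its sign turned with scaling by total counts, at -0.026. miR-99b-5p averaged 5702 ± 3885 CPM over 13 trained and 7484 ± 3364 CPM over 12 sedentary libraries (SD), with -0.19 (SE 0.38, 95% interval -0.95 to 0.58, edgeR adjusted p = 0.973). It was 0.29 (SE 0.38) at title numbers 1 to 13 and -0.68 (SE 0.76) at 14 to 32. miR-100-5p averaged 2326 ± 1347 CPM over 13 trained and 2230 ± 2637 CPM over 12 sedentary libraries (SD), with 0.65 (SE 0.79, 95% interval -0.93 to 2.23, edgeR adjusted p = 0.971). Its interval was the widest of the 5, and its estimate moved with the processing. It was 2.13 in limma-voom (SE 0.90, p = 0.0220, adjusted p = 0.169) and 0.045 (SE 0.81) with total counts only. Without sedentary libraries 30 and 32 the sedentary mean of miR-100-5p was 1350 ± 1818 CPM (SD, n = 10) and the log2 fold change 1.05 (SE 0.88). Without them miR-99a-5p was at 0.34 (SE 0.31) and miR-99b-5p at -0.27 (SE 0.40), with sedentary means of 11467 ± 3947 and 6619 ± 2966 CPM (SD, n = 10). The 95% intervals above hold for the edgeR fit and its scaling, and other processing gave other intervals. For miR-100-5p the interval was 0.32 to 3.95 in limma-voom and -1.59 to 1.68 with total counts only. A value that missed the threshold does not show equal levels.

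**Figure D5:**
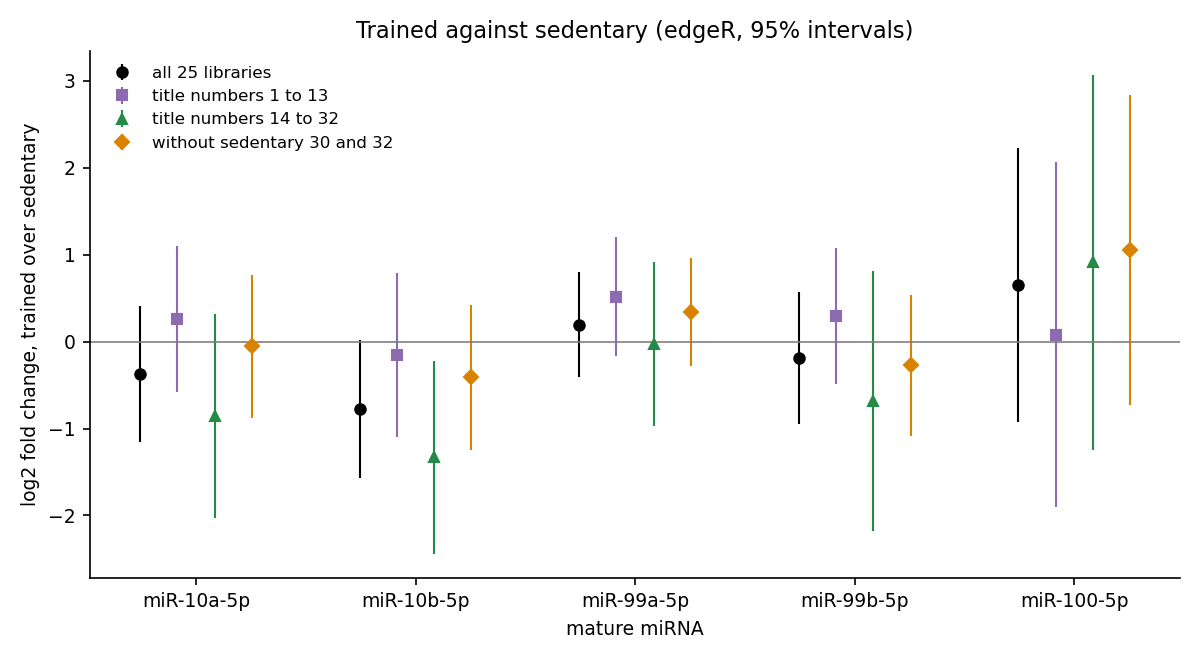
Log2 fold change, trained over sedentary, of the 5 guide strands with 95% intervals from edgeR, for all 25 libraries, for title numbers 1 to 13, for title numbers 14 to 32 and without sedentary libraries 30 and 32. The lone interval that leaves out 0 is that of miR-10b-5p at title numbers 14 to 32, where its adjusted p was 0.518.

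Detection differed between libraries for miR-100-5p and miR-10a-3p. miR-10a-5p, miR-10b-5p, miR-99a-5p and miR-99b-5p had at least 10 counts in all 25 libraries. miR-100-5p had a count in 13 of 13 trained and 10 of 12 sedentary libraries (Fisher's exact test, two-sided, p = 0.220, adjusted p = 0.351). With at least 10 counts asked for, an alternative to the threshold of 1 count, it was found in 13 of 13 trained and 7 of 12 sedentary libraries (Fisher's exact test, p = 0.0149, adjusted p = 0.0596). The lowest trained count was 30, in library 1. In sedentary libraries it had 2 counts in library 8, 5 in library 12, 0 in library 16, 1 in library 19 and 0 in library 29. The other 7 sedentary libraries had 66 to 669 counts. How many of all rows split between the groups in this way was not counted. With at least 10 counts, miR-199a-3p was found in 13 of 13 trained and 9 of 12 sedentary libraries. miR-125a-5p went the other way, with 10 of 13 and 12 of 12.

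The low counts of miR-100-5p were in libraries of differing depth, and the part of depth was not tested. Library 19 had 12181 counts in all, and its 1 count of miR-100-5p had an upper Wilson limit of 465 CPM. Libraries 8, 12, 16 and 29 had 94358, 76432, 37353 and 76048 counts in all. Their upper Wilson limits for miR-100-5p were 77.3, 153, 103 and 50.5 CPM, in that order. The trained library of the lowest depth had 1120 CPM of miR-100-5p. Low counts of miR-100-5p were found in 2 of 6 sedentary libraries at title numbers 1 to 13 and in 3 of 6 at 14 to 32. Among trained libraries they were found in 0 of 6 and 0 of 7. In sedentary library 29, miR-99a-5p had 960 counts beside 0 of miR-100-5p. miR-99a-5p exceeded miR-100-5p by 2.56 to 20.1 times in trained libraries, with a median of 6.00, and by at least 2.53 times in sedentary ones, with a median of 10.8. miR-10a-3p, found in 0 of 13 trained and 1 of 12 sedentary libraries, gave Fisher's exact p = 0.480 (adjusted p = 0.480). With a count in only 1 library this test could not have passed the threshold, so nothing is drawn from it. It remained among the 4 single-value tests adjusted together, and the adjusted p of miR-100-5p depends on that number. Without a filter on low counts edgeR called it at -6.01 (adjusted p = 0.00758) from the 47 counts of sedentary library 4. In that setting 66 of 260 rows were called.

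miRNAs from the same genomic neighbourhoods were read from a list of Hox cluster miRNAs and a list of miR-99 and miR-100 cluster partners. Of 10 Hox names, 8 were in the table, 4 had a count and 0 had enough to be tested. miR-196a-5p, which represses Hox genes, had 159 counts in 4 trained and 148 in 5 sedentary libraries. miR-196b-5p had 0 counts in trained libraries and 140 in 3 sedentary ones, miR-196c-5p had 2 and 5 counts, and miR-615 had 0 counts in trained libraries and 95 in sedentary library 3. The miR-10 guide strands were therefore far more abundant than the other Hox cluster rows, whose sum averaged 96.9 ± 212 CPM in trained (SD, n = 13) and 489 ± 871 CPM in sedentary libraries (SD, n = 12).

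Of the 16 listed cluster partners and their other arms, 10 had a count, 6 were tested and 0 passed, with 1 positive and 5 negative log2 fold changes and a median of -0.51, beside -0.0081 over all tested rows. let-7c-5p, made from the miR-99a cluster and from a further locus, averaged 13432 ± 4138 CPM over 13 trained and 19499 ± 6449 CPM over 12 sedentary libraries (SD), with a log2 fold change of -0.37 (SE 0.29). miR-125b-5p, made from the miR-99a and the miR-100 cluster, was at -0.32 (SE 0.69), and shares its counts with the row miR-3588. In the miR-99b cluster, miR-125a-5p was at -0.77 (SE 0.65) and let-7e-5p at -1.12 (SE 1.00), and the let-7e-5p row shares its counts with miR-3596c. let-7a-5p, 1 of whose loci is in the miR-100 cluster, was the positive one at 0.62 (SE 0.44). The row miR-3596a had the same log2 fold change and SE as let-7a-5p. miR-125b-1-3p, which comes from the miR-100 cluster alone, was at -0.65 (SE 1.13) and had a count in 8 of 13 trained and 10 of 12 sedentary libraries. Among rows with too few counts to test, let-7c-1-3p had 5 counts in trained and 74 in sedentary libraries, miR-125a-3p 302 and 183, and miR-125b-2-3p 125 and 465.

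The rows most like each guide strand were taken as the 3 highest Spearman correlations of log2(CPM + 1) over the 25 libraries among 71 other tested rows, as a description. For miR-10b-5p they were miR-30d-5p (rho 0.78), miR-143-3p (0.77) and miR-125b-5p (0.68). For miR-10a-5p they were miR-30d-5p (0.61) and miR-133a-3p with miR-133c (0.48 each), which share counts. For miR-99b-5p they were miR-30d-5p (0.75) and miR-125b-5p with miR-3588 (0.66 each). For miR-99a-5p they were miR-30d-5p (0.56), miR-21-5p (0.55) and miR-146b-5p (0.52). miR-30d-5p thus led for 4 of the 5 strands. miR-100-5p had another set, miR-199a-3p (0.57), miR-25-3p (0.55) and miR-21-5p (0.50). Among the members, miR-10b-5p and miR-99b-5p were closest (0.72), and miR-10a-5p and miR-100-5p were the farthest apart (0.35). All these values share the libraries and their totals.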

How the data were processed

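Small RNA was sequenced from RNase A-treated mitochondria of 25 rats. Per the labels' protocols, mitochondria came from about 100 mg of muscle, RNase A (312 µg) acted for 1 h at 37 °C, and adapters were used at 0.3 of their strength with 20 PCR cycles. The authors deposited raw counts per mature miRNA. Empty cells were read as 0, since they are 0 in the second table the authors deposited, a signal in which the raw counts of each library are scaled by 1 size factor. Per the submitters' processing notes, fastp 0.20.0 and DESeq2 1.36 were used. The aligner, counter and build remain not given in the sources used here. Since no molecular identifiers are named, counts are of reads. Groups come from the titles. p-values measure the spread between these libraries.

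Raw counts were tested by quasi-likelihood in edgeR 4.0.16 (R 4.3.3) with TMM factors and filterByExpr (minimum count 10, minimum total 15), which kept 76 of 764 rows with 96.9% to 99.0% of counts. Standard errors were taken from the test statistic. Alternatives used DESeq2 1.42.0 and limma 3.58.1. The ratio and the summed share were compared by permutation (numpy 2.4.6), detection by Fisher's exact test (scipy 1.17.1) and the quasi-binomial model with statsmodels 0.14.6. P-values of the 4 single-value tests were adjusted together. A count of 0 was taken to allow up to 3 counts. The fits were tested on simulated data. Named miRNAs were the 6 members, listed partners with a count, the 3 rows most like each tested member and cell type markers. The members, lists and tests were chosen with earlier results of these data known. The setting without sedentary libraries 30 and 32 was added after seeing the data.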

Additional observations from a re-analysis of the deposited data

How the results depend on the processing

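No paired analysis was possible because trained and sedentary rats share no title number. The 5 guide strands had 0 calls in the DESeq2, limma-voom, scaling, filter, covariate, title number and left-out settings. Over all rows there were 0 calls except without a filter, with 66 of 260 rows, of which miR-10a-3p was 1. At an unadjusted p under 0.05 there were 1 of 76 rows in edgeR, 8 of 260 in DESeq2 and 14 of 76 in limma-voom. Size factors of DESeq2 moved the median log2 fold change over all rows to -0.16 and total counts to -0.29. Signs turned for miR-10a-5p (0.26) and miR-99b-5p (0.29) at title numbers 1 to 13, and for miR-99a-5p at numbers 14 to 32 (-0.028) and with total counts only (-0.026). The difference in summed share turned to 0.757 percentage points at numbers 1 to 13 and to 0.117 without sedentary libraries 30 and 32. The cause was not tested. The correlation of miR-10a-5p with miR-10b-5p no longer passed at numbers 1 to 13 (r = 0.13) and in trained libraries alone (r = 0.48).

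With each library left out, log2 fold changes ranged from -0.62 to -0.084 for miR-10a-5p, from -1.07 to -0.52 for miR-10b-5p, from 0.064 to 0.42 for miR-99a-5p, from -0.36 to -0.025 for miR-99b-5p and from 0.36 to 0.88 for miR-100-5p. The lowest edgeR adjusted p among these was 0.363. The log2 ratio ranged from 0.30 to 0.67 and the difference in summed share from -1.55 to -0.63, the weaker end without sedentary library 32. With miR-100-5p asked for at 3 counts, Fisher's exact p was 0.0391 (adjusted p = 0.157). Among the other settings, 1 of which left out the shallow sedentary library 19, 92 values kept their direction and their side of the threshold, 6 turned, 2 no longer passed and 1 count moved.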
